A study of Mus musculus with 4 samples.

Results

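The nuclear genes of the mitochondrial respiratory chain were followed from neural progenitors to young neurons in the mouse telencephalon at embryonic stage E12.5. They were chosen by symbol alone, as every annotated gene whose name begins with Nduf followed by a, b, c, s or v, with Uqcr, with Cox4 to Cox8 or with Atp5, plus Sdha, Sdhb, Sdhc and Sdhd, without names that hold "-ps". This gave 92 of the 43346 genes in the count tables. By name, 38 belonged to complex I, 4 to complex II, 8 to complex III, 18 to complex IV and 17 to complex V, and 7 were Ndufaf factors, which help to build complex I.

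Single-cell RNA sequencing with 10X Genomics droplets had been made from wild-type C57BL/6 embryos, 1 library for every region. The regions were dorsal cortex (CTX) and 3 parts of the ganglionic eminence, namely lateral (LGE), medial (MGE) and caudal (CGE). Each library pooled the tissue of more than 4 embryos, and no mutation, transgene or treatment was present in any of the 4 libraries. By the labels the cells were DRAQ5+/DAPI- live cells from a sort, whereas by the study's methods no sort was done on the wild type. The comparison was between 2 classes of cells within each library. High-Nes cells had Nes, the intermediate filament gene of neural progenitors, above 1.5 on the scale ln(1 + UMIs per 10000), and high-Dcx cells had Dcx, a microtubule gene of migrating young neurons, above the same limit. A UMI is a molecular barcode that counts 1 captured RNA molecule. Since each region had 1 library, the 4 libraries served as the replicates of the class comparison, and no region was tested against another. Sums of raw UMIs over the cells of a class were tested with edgeR's quasi-likelihood test with the library as a block and Benjamini-Hochberg adjustment over all 12282 genes tested, and a gene was called at an adjusted p under 0.05 and a log2 fold change beyond 0.25 in either direction. Nes and Dcx themselves were left out.

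The respiratory chain moves electrons from NADH through complex I, or from succinate through complex II, to complex III and then, by way of cytochrome c, to complex IV, which passes them to oxygen. Complexes I, III and IV pump protons as they do so, and complex V, the ATP synthase, uses the returning protons to make ATP. All subunits of complex II and most subunits of the others are encoded in the nucleus, while a small set of core subunits is encoded in mitochondrial DNA by the mt- genes. Several subunits of complexes IV and V exist as isoforms that are known for use in particular tissues. Neural progenitors are known for strong glycolysis, and neurons for their reliance on oxidative phosphorylation.

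After filtering, the libraries of CTX, LGE, MGE and CGE held 3485, 4626, 4723 and 3182 cells, with median depths of 6932 to 8229 UMIs. Of these cells 864, 574, 512 and 164 were high-Nes, and 775, 2022, 2160 and 2256 were high-Dcx. Cells past both limits were left out, 15 to 72 per library. High-Nes cells were deeper, with medians of 8402.5 to 9891 UMIs against 6318 to 7937 in high-Dcx cells. The summed level of 7 progenitor markers was 4107 to 11586 CPM (UMIs in every 1000000 UMIs of the class) in high-Nes cells and 662 to 1459 CPM in high-Dcx cells, and that of 6 young neuron markers was 242 to 648 CPM against 5756 to 7845 CPM. Cycling markers also differed between the classes, at 1667 to 2622 CPM in high-Nes cells and 381 to 1495 CPM in high-Dcx cells. Each pair of libraries shared 4 to 15 cell barcodes. All intervals below are 95% intervals that cover counting error only, and p-values measure the spread between these 4 libraries, each of another region.

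Some promoters of these genes carry motifs that a few general transcription factors are known to use. Shown are 4, of which 3 are from genes that carry calls below and 1 is from a complex V gene, Atp5k, that was not called. RefSeq promoter windows of the GRCm38.p6 assembly, from 250 bases before to 50 bases after a start, were matched for 76 of the 92 genes. The motif of NRF1, a factor known to drive respiratory chain genes, was searched on both strands in its palindromic form of 10 bases with 1 free base and is in capitals here, read 5′ to 3′ on the strand of the gene.
Ndufa8: agagcagtGCGCTTGCGCgtcgctgg
Sdhd: gctggggtGCGCACGCGCggtggcag
Sdha: tttacaggGCGCAGGCGCaccaccac
Atp5k: tcactgcgGCGCATGCGCctttctgg
These lie on the minus strand upstream of the RefSeq starts at chr2:36049351-36049376, chr9:50603911-50603936, chr13:74350321-74350346 and chr5:108434432-108434457. By GENCODE M21 positions, the stretch of Ndufa8 lies inside the gene (chr2:36036326-36049406). That of Atp5k lies partly inside its gene (chr5:108433244-108434448). A match was held by 19 of the 76 genes, against 5.19% of 27025 genes with a promoter window and 12.6% of the 9275 tested genes with one. Among the members it was held by 5 of 18 called genes and by 14 of 56 tested genes that were not called. The motif of YY1, AAGATGGCG, was held by 8 of the 76 genes (10.5%) and by 3.89% of the tested genes. The motif of ETS factors such as GABPA, CCGGAAG, was held by 17 of the 76 genes (22.4%) and by 21.3% of the tested genes. A match is a description of the letters in the window and was not tested as a binding site.

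The respiratory chain genes differed little between progenitors and young neurons. Of the 92 genes, 87 passed the filter on low counts, and 22 of these (25.3%) were called, 8 higher in high-Dcx cells and 14 higher in high-Nes cells. Among all genes tested 55.3% were called, 27.5% higher in high-Dcx cells and 27.8% higher in high-Nes cells. The fitted log2 fold change of high-Dcx over high-Nes cells lay within 0.25 of no change for 60 of the 87 genes (69.0%), against 24.97% of all genes. The median was -0.02 over the 87 genes and 0.01 over all genes, and the middle of the distribution, from the first to the third quartile, ran from -0.19 to 0.15 for the members and from -0.57 to 0.58 for all genes. Among well-counted genes, 14 of the 66 members at 100 CPM or more were called (21.2%), against 61.7% of the 1948 genes at that level. All 22 called members differed in the same direction in all 4 libraries. The calls were made from these same 4 libraries, so this agreement is not separate evidence for them. The median SE of the 87 fold changes was 0.08, and a gene that was not called is not shown to be unchanged. Without the scaling of library sizes by the trimmed mean of M-values (TMM), the median of all genes shifted to -0.07 and the 22 calls became 28, with 5 higher in high-Dcx and 23 higher in high-Nes cells. Among cells without a UMI of Mki67 or Top2a, 4 were higher in high-Dcx and 19 higher in high-Nes cells.

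**Figure D1:**
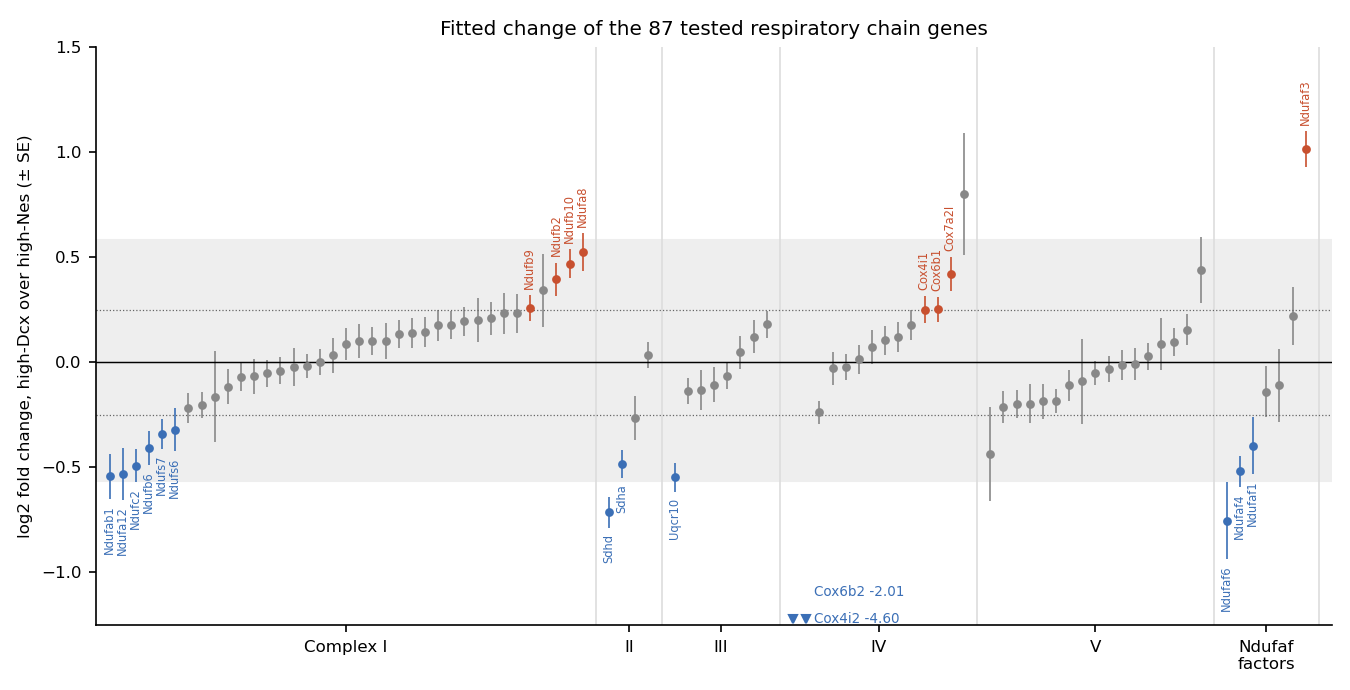
Fitted log2 fold change (high-Dcx over high-Nes, ± SE, n = 4 libraries) of the 87 tested genes, ordered within each complex, with called genes named in red (higher in high-Dcx) or blue (higher in high-Nes), dotted lines at 0.25, and a grey band from the first to the third quartile of all 12282 genes. Most genes lie near 0 and inside the band, Ndufaf3 at 1.01 stands highest, and triangles mark Cox4i2 (-4.60) and Cox6b2 (-2.01), which lie below the axis.

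Summed over all 92 genes, the chain took a slightly smaller part of the UMIs in young neurons before TMM scaling. The sum was 24252, 25419, 23349 and 24562 CPM in high-Nes cells of CTX, LGE, MGE and CGE and 23352, 24614, 22518 and 21835 CPM in high-Dcx cells. On these totals high-Dcx cells were the lower class in all 4 libraries, and CGE held the widest gap. The log2 ratio of high-Dcx to high-Nes cells was -0.08 ± 0.06 (SD, n = 4), and with TMM-scaled totals it was -0.003, with 3 libraries higher and CGE lower in high-Dcx cells. In single cells the median share of UMIs from these genes was 2.36% to 2.55% in high-Nes cells and 2.16% to 2.46% in high-Dcx cells. High-Dcx cells were lower both in this share and in UMIs in all, and the median cell held 207 to 227.5 UMIs of these genes in the high-Nes class and 145 to 188 in the high-Dcx class.

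**Figure D2:**
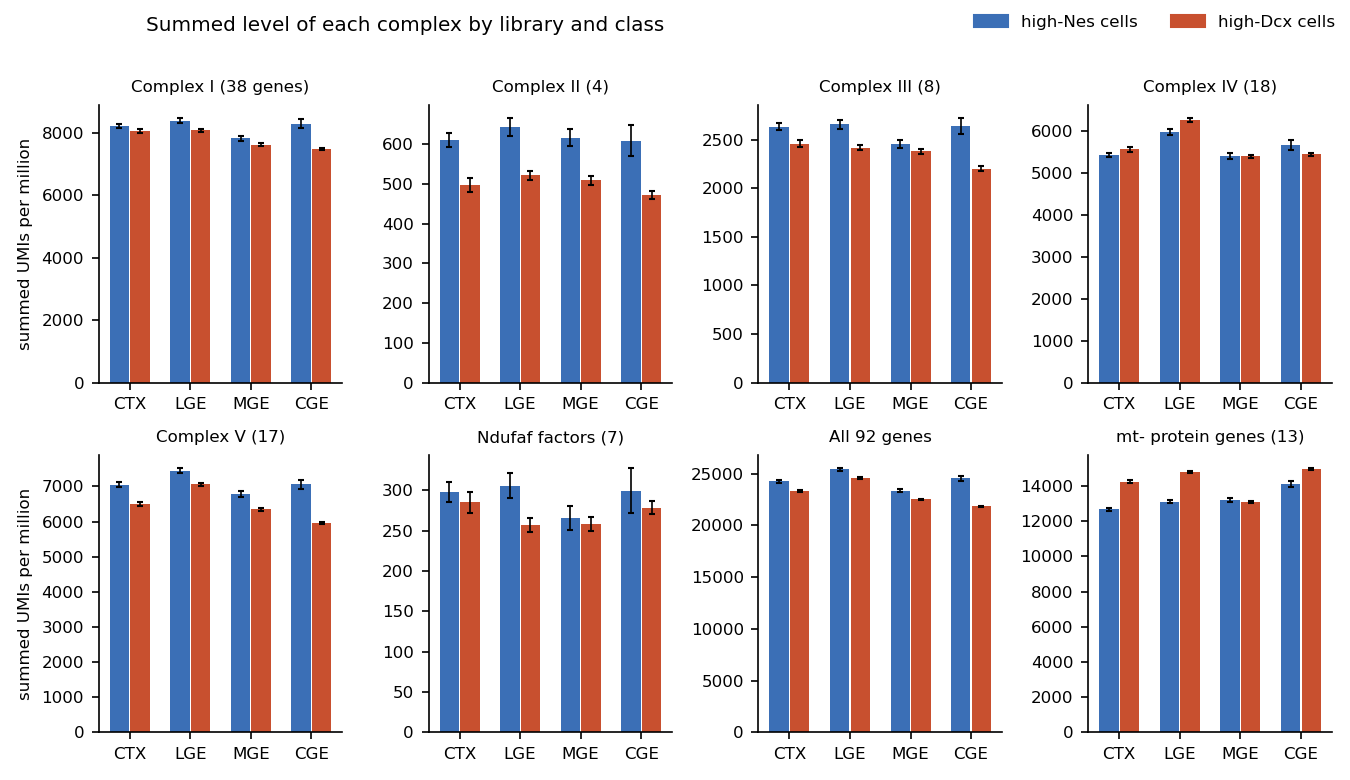
Summed CPM of each complex in high-Nes (blue) and high-Dcx (red) cells of the 4 libraries, with exact Poisson 95% intervals as bars, on axes that start at 0. Complex II is lower in high-Dcx cells in every library (472 to 521 against 608 to 642 CPM), complex IV lies at about the same level in both, and the sum of the mt- protein genes is higher in high-Dcx cells in CTX, LGE and CGE.

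Complex II had the largest difference of the 5 complexes. Its sum was 609.5, 642, 616 and 608 CPM in high-Nes cells of CTX, LGE, MGE and CGE and 497, 521, 509 and 472 CPM in high-Dcx cells. The classes did not overlap in any pair of libraries, and the log2 ratio was -0.31 ± 0.04 (SD, n = 4). It was -0.23 with TMM-scaled totals. Cells past neither limit held 549.9, 571, 537 and 549 CPM, between the 2 classes in each library. The difference was also there among cells without a UMI of Mki67 or Top2a, at 600.4, 652, 632 and 647 CPM in the high-Nes class and 489, 502, 501 and 466 CPM in the high-Dcx class.

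Of the 4 complex II subunits, 2 fell. Sdhd, a membrane anchor of the complex (chr9:50596357-50603812), was at 71.8, 90.3, 92.1 and 86.99 CPM in high-Nes cells of CTX, LGE, MGE and CGE and at 39.8, 51.4, 54.9 and 51.6 CPM in high-Dcx cells. Every high-Dcx value was below every high-Nes value. The log2 fold change was -0.71 (SE 0.075, adjusted p = 0.00094, edgeR). Sdha, the flavoprotein that oxidizes succinate, was at 162, 169, 162 and 165 CPM in high-Nes cells and at 110.4, 110.0, 114 and 112 CPM in high-Dcx cells, again without overlap. Its log2 fold change was -0.48 (SE 0.07, adjusted p = 0.0022, edgeR). Both stayed called under all 21 alternative settings. Sdhc, the other membrane anchor, was lower in high-Dcx cells in all 4 libraries but did not pass (-0.27, SE 0.10, adjusted p = 0.074, edgeR). Sdhb, the iron-sulfur subunit that hands electrons from Sdha onward, had a log2 fold change of 0.04 (SE 0.06), with 237 to 282 CPM in high-Nes and 233 to 276 CPM in high-Dcx cells. Before TMM scaling Sdhb was also slightly lower in high-Dcx cells in all 4 libraries, so its sign depended on the scaling.

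Complex I stood at 8227, 8390, 7822 and 8286 CPM in high-Nes cells of CTX, LGE, MGE and CGE and at 8051, 8088, 7626 and 7479 CPM in high-Dcx cells. The log2 ratio was -0.07 ± 0.05 (SD, n = 4), and 0.01 with TMM-scaled totals, where 3 libraries were higher in high-Dcx cells, so its direction depended on the scaling. Of its 37 tested genes, 4 were higher in high-Dcx cells and 6 higher in high-Nes cells. This was 27.0% called, against 55.3% of all genes tested. None of the 3 core subunits that take electrons from NADH (Ndufv1, Ndufv2 and Ndufs1) was called, at log2 fold changes of 0.18, -0.04 and 0.20. Among the 4 core subunits of the arm that binds ubiquinone, Ndufs7, which carries the last iron-sulfur cluster, fell from 180.0 to 236 CPM in high-Nes cells to 135 to 161 CPM in high-Dcx cells (log2 fold change -0.34, SE 0.07, adjusted p = 0.0088, edgeR).

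The other calls of complex I were among its 29 supernumerary subunits, which surround the core and do not carry electrons. Ndufa8, an intermembrane space subunit, was at 163.5, 173, 184 and 183 CPM in high-Nes cells of CTX, LGE, MGE and CGE and at 217, 223, 305 and 223 CPM in high-Dcx cells. The classes did not overlap, MGE was the highest of the high-Dcx values, and the log2 fold change was 0.52 (SE 0.09, adjusted p = 0.0047, edgeR). Ndufb10, a subunit of the membrane arm, was at 208, 219, 195 and 169 CPM and rose to 253, 291.5, 250.3 and 242 CPM (log2 fold change 0.47, SE 0.07, adjusted p = 0.0028, edgeR). Ndufb2 and Ndufb9, also of the membrane arm, rose by log2 fold changes of 0.39 and 0.26. Ndufb2 was not called among cells without a UMI of Mki67 or Top2a (0.20, adjusted p = 0.20, edgeR), and Braf, which overlaps it, also rose.

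In the other direction, Ndufab1, the mitochondrial acyl carrier protein, which also serves fatty acid synthesis, was at 212, 225.5, 213 and 253 CPM in high-Nes cells of CTX, LGE, MGE and CGE and at 149.8, 161.5, 147 and 129 CPM in high-Dcx cells. The classes did not overlap, and CGE had the widest gap. Its log2 fold change was -0.54 (SE 0.11, adjusted p = 0.0074, edgeR). Ndufa12, a subunit of the peripheral arm, fell from 107.5 to 136 CPM to 66.6 to 84.7 CPM (-0.53, SE 0.12, adjusted p = 0.013, edgeR). Ndufc2 and Ndufb6 of the membrane arm and Ndufs6, which binds zinc in the peripheral arm, fell by 0.49, 0.41 and 0.32 on the log2 scale. Ndufs6 lost its call in 8 of 21 alternatives, among them without CTX, MGE or CGE, and Ndufb9 in 6, among them without CTX or LGE. Mrpl36, which overlaps Ndufs6 on the opposite strand, also fell (-0.45, adjusted p = 0.015, edgeR). Ndufv3, a small subunit near the NADH site, was at 140.3 and 262 CPM in the 2 classes of CTX and at 140.3 to 156 and 143 to 164 CPM in the other libraries, and it was not called (0.34, SE 0.18, adjusted p = 0.15, edgeR).

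The Ndufaf assembly factors held the largest rise of the 87 genes. Of the 7 factors, 1 was higher in high-Dcx and 3 in high-Nes cells (57.1% called, against 55.3% of all genes tested). Ndufaf3 (chr9:108565537-108567434, minus strand) was at 36.8, 35.7, 37.0 and 35.2 CPM in high-Nes cells of CTX, LGE, MGE and CGE and at 72.8, 62.9, 70.3 and 71.7 CPM in high-Dcx cells. Each class held within a narrow range, and the lowest high-Dcx value was above the highest high-Nes value by far more than either range. The log2 fold change was 1.01 (SE 0.08, adjusted p = 0.00049, edgeR), and it stayed called under all 21 alternatives with values of 0.94 to 1.27. Impdh2, which overlaps Ndufaf3 on the opposite strand, went the other way (-1.49, adjusted p = 0.00035, edgeR).

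Ndufaf4, whose protein is known to bind that of Ndufaf3 in building the ubiquinone arm, was at 86.8, 110.5, 74.7 and 79.7 CPM in high-Nes cells of CTX, LGE, MGE and CGE and at 58.2, 70.0, 49.6 and 54.3 CPM in high-Dcx cells. The classes did not overlap, and the log2 fold change was -0.52 (SE 0.07, adjusted p = 0.0024, edgeR). Ndufaf6 fell from 15.3 to 25.9 CPM to 6.54 to 18.7 CPM (-0.75, SE 0.18, adjusted p = 0.016, edgeR), with overlap between libraries, and was not called without LGE, MGE or CGE. Ndufaf1, which acts in assembly of the membrane arm, fell by 0.40 on the log2 scale (adjusted p = 0.049, edgeR) and lost its call in 11 of 21 alternatives, among them without LGE, MGE or CGE. Ndufaf2, Ndufaf5 and Ndufaf7 were not called, at -0.14, -0.11 and 0.22. The sum of the 7 factors was 265 to 306 CPM in high-Nes cells and 257 to 285 CPM in high-Dcx cells.

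**Figure D3:**
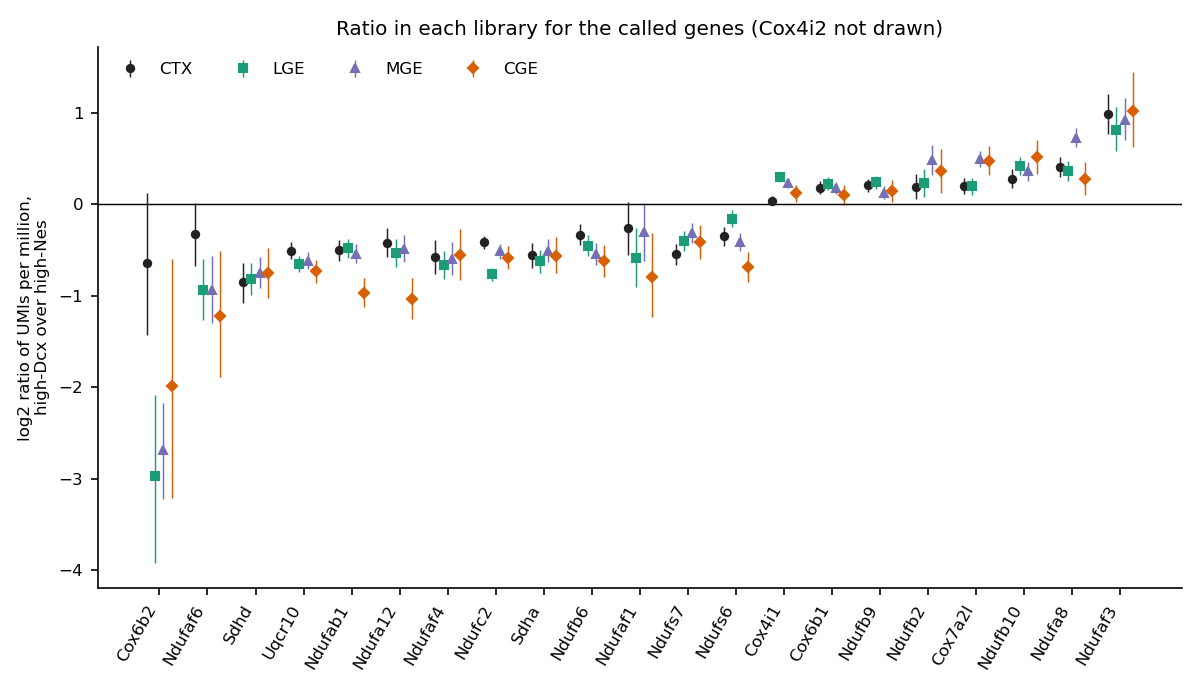
Log2 ratio of CPM, high-Dcx over high-Nes, in each of the 4 libraries (symbols) for 21 of the 22 called genes, with exact 95% intervals of the ratio of counts. The 4 libraries lie on the same side of 0 for every gene drawn, which is not separate evidence because the genes were called from these libraries. CGE stands apart from the other libraries for Ndufab1 (-0.97 against -0.54 to -0.48).

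Complex III was at 2635, 2656, 2455 and 2638 CPM in high-Nes cells of CTX, LGE, MGE and CGE and at 2459, 2419, 2379 and 2201 CPM in high-Dcx cells. The log2 ratio was -0.14 ± 0.09 (SD, n = 4), and every library was lower in high-Dcx cells on these totals. With TMM-scaled totals it was -0.06, and MGE was at 0.01 while the other libraries stayed below 0. Of the 8 genes, 1 was called. Uqcr10, a small accessory subunit, was at 340.0, 352, 319 and 378.5 CPM in high-Nes cells and at 239.7, 224, 208 and 228 CPM in high-Dcx cells, without overlap between the classes. Its log2 fold change was -0.55 (SE 0.07, adjusted p = 0.0016, edgeR), and it was called under all 21 alternatives. The 3 catalytic and core members, Uqcrc1, Uqcrc2 and the Rieske protein Uqcrfs1, were not called, at -0.11, 0.05 and 0.12. Uqcrh, the hinge protein near cytochrome c, was at 537 to 566 CPM in high-Nes and 543.5 to 640.3 CPM in high-Dcx cells and stopped short of the threshold (0.18, SE 0.06, adjusted p = 0.051, edgeR), and Uqcrb was at -0.14 (adjusted p = 0.11, edgeR).

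Complex IV differed least of the 5 sums on totals without TMM. It was at 5429, 5974, 5406 and 5670 CPM in high-Nes cells of CTX, LGE, MGE and CGE and at 5561, 6266, 5400 and 5443 CPM in high-Dcx cells. CTX and LGE were higher in high-Dcx cells, CGE was lower, and in MGE the interval of the ratio covered 1. The log2 ratio was 0.01 ± 0.05 (SD, n = 4), against 0.09 with TMM-scaled totals, where all 4 libraries were higher in high-Dcx cells, and -0.07 among cells without a UMI of Mki67 or Top2a. Of its 14 tested genes, 3 rose and 2 fell (35.7% called, against 55.3% of all genes tested). Among the widely used subunits, Cox4i1 rose by a log2 fold change of 0.25 (SE 0.07, adjusted p = 0.020, edgeR), Cox6b1 by 0.25 (SE 0.06, adjusted p = 0.014, edgeR), and Cox7a2l by 0.42. Cox4i1 and Cox6b1 lay at the limit of 0.25, and Cox4i1 lost its call in 11 of 21 alternatives (among them without LGE or MGE) and Cox6b1 in 8 (among them without CTX, LGE or MGE). Emc8, which overlaps Cox4i1, went the other way (-0.80, adjusted p = 0.0019, edgeR). Cox8a was below that limit at -0.24 (adjusted p = 0.013, edgeR), and Cox5a, Cox5b, Cox6a1, Cox6c, Cox7a2, Cox7b and Cox7c were between -0.03 and 0.18 and not called.

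Complex V was at 7054, 7451, 6784 and 7060 CPM in high-Nes cells of CTX, LGE, MGE and CGE and at 6499, 7064, 6346 and 5961 CPM in high-Dcx cells. All 4 libraries were lower in high-Dcx cells, with a log2 ratio of -0.13 ± 0.08 (SD, n = 4), or -0.06 with TMM-scaled totals, where LGE was at 0.02. None of its 17 genes was called by edgeR, where 4 had an unadjusted p under 0.05 and 2 an adjusted p under 0.05, and none was called by DESeq2. The 5 genes of the F1 head, among them the catalytic Atp5b and its partner Atp5a1, were between -0.20 and 0.10. The stator stalk genes Atp5f1, Atp5h, Atp5j and Atp5o were between -0.19 and 0.16. The largest values in either direction were of scarce transcripts. Atp5g2 had -0.44 (SE 0.23, adjusted p = 0.15, edgeR) at 2.9 to 12.9 CPM, and Atp5sl, whose product is known as a complex I assembly factor despite its name, had 0.44 (SE 0.16, adjusted p = 0.056, edgeR) at 8.16 to 16.8 CPM.

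Expressed as parts of the whole, complexes II, IV and V each shifted slightly and in 1 direction in all 4 libraries, while complexes I and III did not. Complex IV made up 22.4%, 23.5%, 23.2% and 23.1% of the UMIs of the 92 genes in high-Nes cells of CTX, LGE, MGE and CGE and 23.8%, 25.5%, 24.0% and 24.9% in high-Dcx cells. Complex II made up 2.51%, 2.53%, 2.64% and 2.47% and then 2.13%, 2.12%, 2.26% and 2.16%. Complex V went from 29.1%, 29.3%, 29.1% and 28.7% to 27.8%, 28.7%, 28.2% and 27.3%. These shares do not depend on how the libraries were scaled. Complex III was at 10.9%, 10.5%, 10.5% and 10.7% in high-Nes and 10.5%, 9.83%, 10.6% and 10.1% in high-Dcx cells, lower in all libraries but MGE. Complex I lay between 32.9% and 34.5%, lower in high-Dcx cells of LGE and higher in those of the other libraries. As shares of 1 sum, they show unequal change and not which complex changed.

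**Figure D4:**
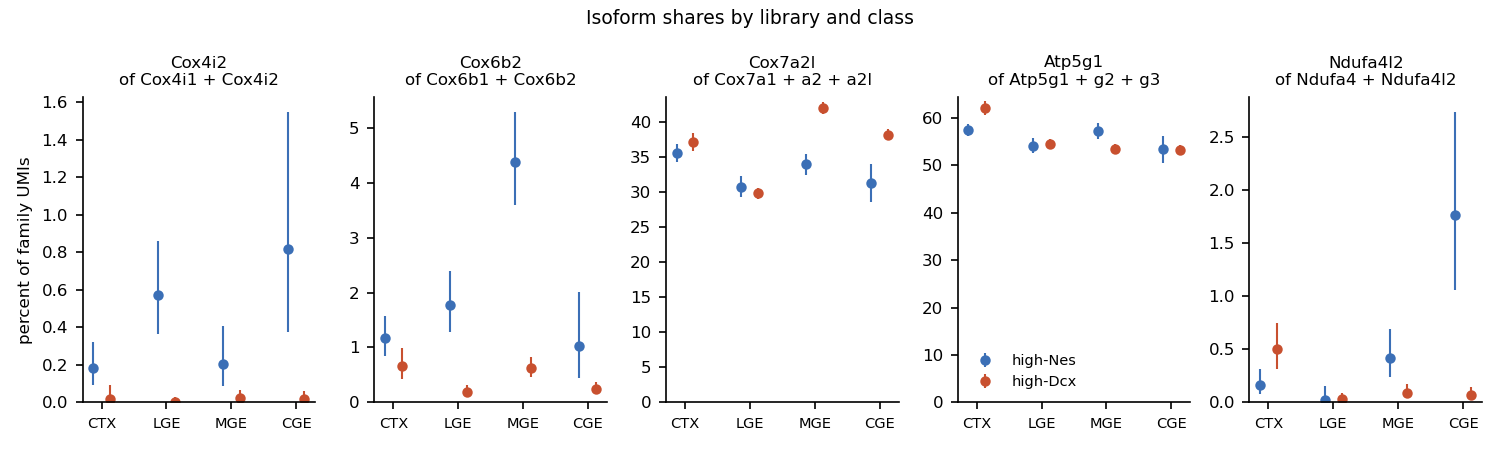
Share of 5 isoforms among the UMIs of their family in high-Nes (blue) and high-Dcx (red) cells of the 4 libraries, with exact Clopper-Pearson 95% intervals. Cox4i2 and Cox6b2 have lower shares in high-Dcx cells in all 4 libraries, Cox7a2l has a higher share in MGE and CGE, and Atp5g1 moves up in CTX and down in MGE.

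Among the 8 isoform families with members in the tables, called changes were found in both rare isoforms (Cox4i2, Cox6b2) and common ones (Cox4i1, Cox6b1, Cox7a2l). Each molecule is read at its 3′ end in these libraries, so shares are of molecules counted and not per length. Cox6a2 and Cox8b, known from heart and skeletal muscle, and Cox8c, known from testis, had 0 UMIs in both classes of all 4 libraries. With 162 to 2224 cells per class after thinning to 3000 UMIs, 0 cells allow a share of up to 0.135% to 1.85% of cells with a UMI. This limits detection at that depth and not the share of cells that express the gene. Cox7b2 had 2 UMIs in all, so that Cox6a1, Cox7b and Cox8a gave nearly all UMIs counted in their families.

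Cox4i2, the isoform of the regulatory subunit Cox4 known for its response to low oxygen (chr2:152754173-152765037), was rare, and of the 2 classes it was counted mostly in high-Nes cells. It had 12, 23, 8 and 9 UMIs in high-Nes cells of CTX, LGE, MGE and CGE and 1, 0, 3 and 2 UMIs in high-Dcx cells. Of the Cox4 UMIs it made up 0.184%, 0.575%, 0.207% and 0.819% in high-Nes cells and at most 0.0231% in high-Dcx cells, and the intervals of the classes overlapped in no library. The fitted log2 fold change was -4.60 (SE 0.75, adjusted p = 0.0039, edgeR), which depends on the prior count in a library with 0 UMIs. It was called in all 17 alternatives in which it could be tested. It fell below the filter with non-neural cells removed and after thinning to 3000 UMIs. The same held with a gate of 2.0 and among cells without a UMI of Mki67 or Top2a. Its call was thus not tested under these settings. Only its counts in high-Nes cells carried Cox4i2 past the filter on low counts. Its call is therefore not separate evidence beside those counts. Many of its UMIs lay outside both classes. Kept cells with 3 or more genes of a pericyte or mesenchyme list held 12, 0, 50 and 16 UMIs in CTX, LGE, MGE and CGE, and endothelial cells called in the same way held 13, 0, 31 and 12. A cell that met both lists was counted in both. Kept cells that met none of the pericyte, endothelial, microglia and red blood cell lists held 34, 47, 14 and 20. Most of the high-Nes class was among them. Within the high-Nes class, pericyte-list cells gave 0 of 12, 0 of 23, 1 of 8 and 2 of 9 UMIs, and cells called endothelial gave 0. Over whole classes the 8 pericyte or mesenchyme genes summed to 11.2 to 101 CPM in high-Nes and 0.857 to 7.43 CPM in high-Dcx cells, and the 8 endothelial genes to 9.79 to 77.9 and 2.95 to 6.73 CPM. Free RNA from such cells was not tested.

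Cox6b2, known from testis, was at 5.7, 8.36, 20.8 and 5.31 CPM in high-Nes cells of CTX, LGE, MGE and CGE and at 3.67, 1.07, 3.23 and 1.35 CPM in high-Dcx cells. High-Nes cells of MGE held the most, and CTX was the library with the smallest difference, whose interval of the ratio covered 1. It made up 1.17%, 1.77%, 4.38% and 1.02% of Cox6b UMIs in high-Nes cells and 0.664%, 0.197%, 0.625% and 0.243% in high-Dcx cells. The log2 fold change was -2.01 (SE 0.44, adjusted p = 0.011, edgeR). Without MGE it was not called (adjusted p = 0.06, edgeR). Its counts in high-Dcx cells alone would not have carried Cox6b2 past the filter on low counts. The call is therefore not separate evidence beside its counts in high-Nes cells. After thinning to 3000 UMIs, 29 of 509 high-Nes cells of MGE held a UMI (5.7%, interval 3.85% to 8.08%), against 15 of 2109 high-Dcx cells (0.711%, interval 0.399% to 1.17%). Cells of the pericyte list gave 0 of its 103 UMIs in high-Nes cells of MGE.

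Cox7a2l, which resembles the Cox7a subunits, was at 279, 248, 278 and 245 CPM in high-Nes cells of CTX, LGE, MGE and CGE. In high-Dcx cells it was at 321, 284, 392 and 341.5 CPM. The high-Dcx values were all above the high-Nes values, most so in MGE and CGE. The log2 fold change was 0.42 (SE 0.08, adjusted p = 0.0064, edgeR), and among cells without a UMI of Mki67 or Top2a it was not called (0.30, adjusted p = 0.092, edgeR). Its share of Cox7a UMIs went from 34.0% to 42.0% in MGE and from 31.3% to 38.2% in CGE, from 35.6% to 37.2% in CTX, where the intervals overlapped, and from 30.8% to 29.9% in LGE. Regions were not tested against each other. Cox7a1, the isoform of muscle, was at 0.814 to 1.99 CPM in high-Nes cells and 1.68 to 2.63 CPM in high-Dcx cells and was not called (0.80, SE 0.29, adjusted p = 0.059, edgeR).

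The Atp5g genes encode the same ring subunit of complex V from different precursors. Atp5g1 made up 57.4%, 54.1%, 57.2% and 53.3% of their UMIs in high-Nes cells of CTX, LGE, MGE and CGE and 62.1%, 54.5%, 53.4% and 53.3% in high-Dcx cells. It was thus higher in high-Dcx cells of CTX, lower in those of MGE and alike in the other libraries. Neither Atp5g1 (-0.20, adjusted p = 0.12) nor Atp5g3 (-0.21, adjusted p = 0.056) was called by edgeR. Part of the last 400 bases of the transcripts of Atp5g1 and Atp5g2 also occurs in other annotated genes, 11.7% and 24.6% of their stretches of 60 bases, so their counts are uncertain.

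Ndufa4l2, the partner of the complex IV subunit Ndufa4 and known for its response to low oxygen, was too scarce to test. It had 9, 1, 15 and 19 UMIs in high-Nes cells of CTX, LGE, MGE and CGE and 23, 3, 8 and 7 in high-Dcx cells. In MGE and CGE the higher share in high-Nes cells came with cells of the pericyte list. A single such cell gave 18 of the 19 UMIs in CGE, and 2 such cells gave 10 of the 15 in MGE. In CTX its share of the family was the other way round, 0.168% (interval 0.0769% to 0.319%) in high-Nes and 0.501% (0.318% to 0.751%) in high-Dcx cells, and 1 of the 9 high-Nes UMIs came from cells of that list. Ndufa4 itself was not called (-0.02, SE 0.06, adjusted p = 0.81, edgeR).

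The protein genes of the mitochondrial genome summed to slightly more in young neurons in 3 of the 4 libraries, and in all 4 with TMM-scaled totals. Before that scaling a single gene, mt-Cytb, gave most of the rise in CTX and LGE and all of it in CGE. The 13 mt- protein genes summed to 12683, 13119, 13195 and 14122 CPM in high-Nes cells of CTX, LGE, MGE and CGE and to 14259, 14814, 13071 and 14972 CPM in high-Dcx cells. CTX, LGE and CGE were higher in high-Dcx cells and MGE was not, and the log2 ratio was 0.10 ± 0.09 (SD, n = 4). With TMM-scaled totals it was 0.18 ± 0.11 (SD, n = 4), with MGE at 0.04. For every 100 UMIs of the 92 nuclear genes, 52.3, 51.6, 56.5 and 57.5 UMIs of mt- protein genes were counted in high-Nes cells and 61.1, 60.2, 58.1 and 68.6 in high-Dcx cells, so that the ratio was higher in high-Dcx cells in all 4 libraries. Cells with a mitochondrial share of 5% or more had been left out, and with them kept the log2 ratio of the mt- sum was 0.09.

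Of 12 mt- protein genes tested, 2 were called (16.7%, against 55.3% of all genes tested), both higher in high-Dcx cells. mt-Cytb, the mitochondrial subunit of complex III, was at 5353, 5294, 5261 and 5761 CPM in high-Nes cells and at 6595, 6316, 5741 and 6633 CPM in high-Dcx cells (log2 fold change 0.30, SE 0.05, adjusted p = 0.0044, edgeR). In CGE the sum of the 13 genes went from 14122 to 14972 CPM, a smaller rise than that of mt-Cytb alone. mt-Nd4 of complex I rose by 0.27 (SE 0.06, adjusted p = 0.0099, edgeR) and was not called without CTX. mt-Nd1, mt-Nd2 and mt-Nd5, also of complex I, were at -0.05, 0.05 and -0.002, and mt-Co1 of complex IV was at 0.15, none of them called. The remaining genes mt-Co2, mt-Co3, mt-Atp6, mt-Atp8, mt-Nd4l and mt-Nd6 were between 4.65 and 84.4 CPM, and none was called. These genes thus added little to the sum of the 13, which does not weigh the mt- genes evenly. Sequence shared with other genes was not checked for the mt- genes, so their counts are uncertain. Without TMM neither mt-Cytb nor mt-Nd4 passed the limit of 0.25. Over all tested mitochondrial transcripts the largest called change was that of mt-Rnr2, the large ribosomal RNA, which was at 2330.1, 2585, 2710.1 and 2571 CPM in high-Nes cells of CTX, LGE, MGE and CGE and at 2972, 4141, 4077 and 4053 CPM in high-Dcx cells. The classes did not overlap, and it rose by 0.65 (SE 0.07, adjusted p = 0.00093, edgeR) and was called in all 20 alternatives in which it was tested.

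**Figure D5:**
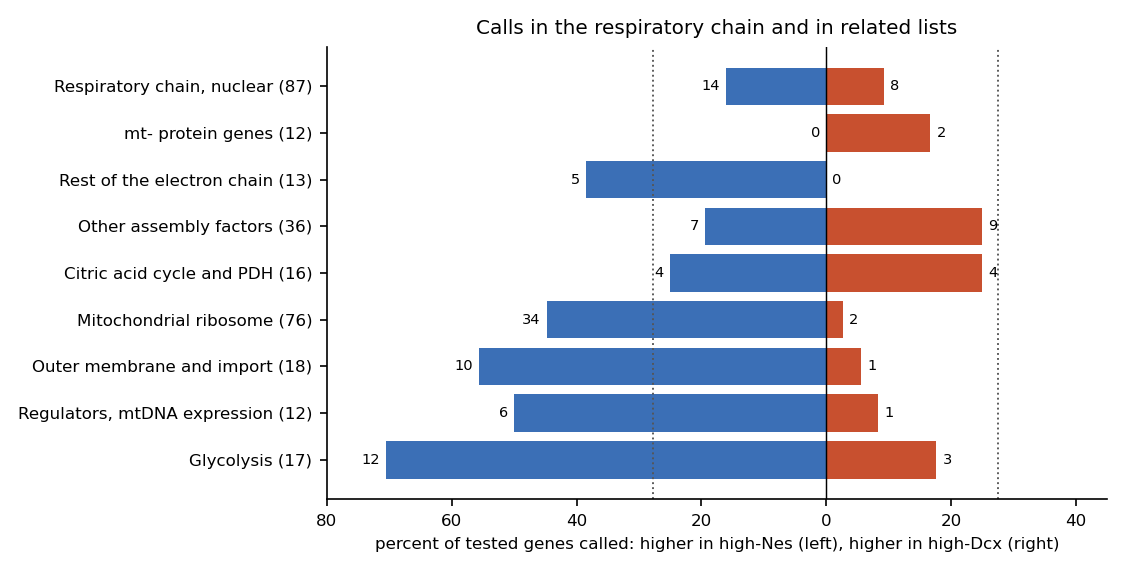
Percent of the tested genes of each list (number in brackets) that were called higher in high-Nes cells (left, blue) or higher in high-Dcx cells (right, red), with the number of called genes at each bar and dotted lines at the percent of all genes called in that direction. The nuclear respiratory chain has 14 and 8 calls of 87, and the glycolysis list has 12 and 3 of 17.

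Related mitochondrial and energy genes were counted from lists of their own. Of all genes tested, 55.3% were called, 27.5% higher in high-Dcx and 27.8% higher in high-Nes cells. The cytochromes c and c1 did not pass the test, with Cyc1, the cytochrome c1 of complex III, at 0.01 (SE 0.06) and Cycs, cytochrome c, at -0.20 (SE 0.13, adjusted p = 0.24, edgeR). Of the 13 tested genes of this list, which also holds ubiquinone synthesis and the electron-transferring flavoprotein, 5 were higher in high-Nes cells and 0 in high-Dcx cells. Etfa, which feeds electrons from fatty acid oxidation to ubiquinone, changed most, from 59.8 to 91.96 CPM to 26.0 to 39.2 CPM (-1.15, SE 0.08, adjusted p = 0.00031, edgeR). Of 36 tested assembly factors outside the Ndufaf names, 9 were higher in high-Dcx and 7 in high-Nes cells (44.4% called). Lyrm7, which acts in maturation of the Rieske protein, rose by 1.09 at 1.99 to 5.64 CPM (not called without LGE or CGE), and Nubpl, which delivers iron-sulfur clusters to complex I, fell by 1.68 on the log2 scale. The inhibitor of the ATP synthase in this list, Atpif1, chosen after its value was seen, rose from 485 to 589 CPM to 914 to 997.5 CPM (0.92, SE 0.08, adjusted p = 0.00053, edgeR), beside a complex V with no called gene.

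The mitochondrial ribosome makes the subunits encoded in mitochondrial DNA. Of its 76 tested genes, 47.4% were called, against 55.3% of all genes tested, with 34 higher in high-Nes and 2 in high-Dcx cells. Mrps28 was at -1.248 and Mrpl41 at 0.36, the latter not called without LGE or MGE. Of 12 tested regulators, 6 were higher in high-Nes cells and 1 in high-Dcx cells (58.3% called). Ppargc1a, the coactivator known for driving mitochondrial biogenesis, was scarce, at 5.25 to 15.9 CPM in high-Nes cells and 0.785 to 2.63 CPM in high-Dcx cells (-2.47, SE 0.50, adjusted p = 0.0082, edgeR). Its high-Dcx counts alone would not have passed the filter on low counts, so its call is not separate evidence beside its high-Nes counts. Esrra, a nuclear receptor that works with Ppargc1a, was the gene that rose (1.42, SE 0.17, adjusted p = 0.0015, edgeR). Tfam, which packages mitochondrial DNA, was also named after its value was seen, and it fell by 0.79 on the log2 scale (adjusted p = 0.00069, edgeR). Of 18 tested genes for the outer membrane, import and chaperones, 10 were higher in high-Nes and 1 in high-Dcx cells (61.1% called). The chaperone Hspd1 was at -1.13 and the import protein Timm8b at 0.39.

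The carriers that exchange ADP for ATP across the inner membrane changed in opposite directions. Of 4 tested carriers of the inner membrane, 1 was higher in high-Dcx and 2 were higher in high-Nes cells. Slc25a4, the form known from heart, muscle and brain, was at 590.1, 566, 512 and 621 CPM in high-Nes cells of CTX, LGE, MGE and CGE and at 869, 804, 730 and 843 CPM in high-Dcx cells. Slc25a5, the form known from dividing cells, was at 724, 1017, 980.1 and 1079.8 CPM and then at 421, 343, 303 and 279 CPM. Neither gene's classes overlapped. The log2 fold changes were 0.58 (SE 0.06, adjusted p = 0.00072, edgeR) and -1.42 (SE 0.20, adjusted p = 0.0022, edgeR), and both were called under all 21 alternatives.

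Of 16 tested genes of the citric acid cycle and pyruvate dehydrogenase, 4 were higher in each class, with Pdhb at 0.47 and Suclg2 at -3.63. Of 17 glycolysis genes, 12 were higher in high-Nes and 3 in high-Dcx cells (88.2% called). Aldoc, an aldolase, fell most (-4.59, SE 0.23) and Eno2, the neuronal enolase, rose most (2.59, SE 0.43, adjusted p = 0.004, edgeR). Lactate dehydrogenase Ldha, also chosen after its value was seen, went from 866, 479, 457 and 582 CPM in high-Nes cells of CTX, LGE, MGE and CGE to 255, 62.1, 56.6 and 67.1 CPM in high-Dcx cells (-2.64, SE 0.26, adjusted p = 0.00073, edgeR). The median log2 fold change was -0.93 over the glycolysis genes, -0.24 over the mitochondrial ribosome and -0.02 over the nuclear respiratory chain.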

How the data were processed

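The deposited values were raw UMI counts per gene and cell barcode, made by the authors with Cell Ranger (version 3.0.0 per the labels, 3.0.2 per the file headers) on mm10 (GRCm38), with at least 500 UMIs per barcode. Library totals were 31451467 to 49794765 UMIs, and kept cells held 23193507 to 37081438. Cells used here had over 1500 and under 4500 genes, a mitochondrial share below 5% and an Hbb share below 1%, and predicted doublets were removed at 0.8% per 1000 barcodes. Raw counts were summed per class and library (8 sums of 1505890 to 15603600 UMIs) and tested with edgeR 4.0.16 in R 4.3.3 (TMM, filterByExpr, library as block, Benjamini-Hochberg). Sums and shares per complex carry exact Poisson or Clopper-Pearson intervals (scipy) and no test. DESeq2 1.42.0 was an alternative. Of 43346 gene IDs, 42462 matched GENCODE M21, from which positions were taken. The annotation release and strand setting of the counting are not given in the sources used here. Ndufa4 and Ndufa4l2 were counted with complex I by name.

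Genes named in the text were the isoform families, the 2 largest changes in each direction per complex, all Sdh genes, Cyc1, Cycs, the mt- protein genes and the largest called change in each direction per list. Other called members, and a few other genes identified as such, were added after their values were seen. The members and lists were chosen with earlier results of these data known.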

Additional observations from a re-analysis of the deposited data

Results flagged for a closer look

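The outlier test compared the 4 libraries of the log2 ratios or share differences of 39 genes, 8 sums and 9 isoform shares. Chance alone flags about 1 in 20 such groups, so the flags below are about as many as chance would give. The sum of all 92 genes had a log2 ratio of -0.17 in CGE, against -0.05 in each of CTX, LGE and MGE. CGE was also the library with the fewest high-Nes cells (164). Ndufab1 had a log2 ratio of -0.97 in CGE, against -0.54 to -0.48 in the other libraries. Sdhb had a log2 ratio of -0.10 in CTX, against -0.02 in the others, and was not called.

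Among rows outside the chosen genes, 3 pseudogene-like names held UMIs over all barcodes of the 4 libraries, above the 3 counts set as a floor. Atp5l-ps1 held 56, Atp5l2-ps held 46 and Atp5l-ps2 held 4. Of the last 400 bases of Atp5l, 77.7% of the stretches of 60 bases also occur in 10 other annotated genes, and this gene was at 9.78 to 21.9 CPM.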

How the results depend on the processing

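No count over all genes moved by more than 1.5 times under any alternative, and leaving out 1 library gave 5259 to 7068 called genes and 16 to 21 called members. The called members numbered 19 to 28 over the other settings, and their split moved. Higher in high-Dcx were 5 with a gate of 1.0, 4 without cycling cells, 5 without TMM and 5 to 8 with 1 library left out (5 without LGE), against 8. Higher in high-Nes were 23 without TMM and 10 to 14 with 1 library left out (10 without MGE), against 14, and with a gate of 2.0 the split was 12 and 10. Leaving mt- genes out of the totals gave no values for mt- genes. The library pairs the 2 classes, since both come from the same pool, and without this replicate block 20 members (8 higher in high-Dcx and 12 higher in high-Nes) and 6188 genes were called.

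Complex I reversed to 0.010 with TMM-scaled totals, and was -0.14 without cycling cells and -0.12 with ribosomal protein genes left out of the totals. Complex II was -0.38 with a gate of 2.0, -0.37 without cycling cells, -0.36 without ribosomal protein genes and -0.23 with TMM. Complex IV was -0.074, -0.045 and 0.088 for the last 3 of these. Complex III was -0.058 with TMM and the mt- protein sum 0.18. Complex V was -0.24 without cycling cells and -0.057 with TMM, and the sum of all members -0.16 and -0.0035. Without 1 library the sums were -0.08 to -0.04 for complex I, -0.32 to -0.29 for II, -0.17 to -0.09 for III, -0.01 to 0.03 for IV and -0.15 to -0.10 for V. Among isoform shares, Cox7a1 was 0.029 percentage points with cells past both gates kept and reversed to -0.042 without cycling cells, and Ndufa4l2 was -1.74 without cycling cells. The causes were not tested.

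Depth limits the rare isoforms, and CGE rests on 164 high-Nes cells. Counts of transcripts that share sequence with other genes (Atp5l, Ndufs3, Atp5h, Cox7c) are uncertain.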
